A study of Homo sapiens with 6 samples.

Results

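The genes followed here are 10 genes of the integrated stress response (ISR) and the unfolded protein response (UPR): ATF4, DDIT3, ASNS, TRIB3, CHAC1, PSAT1, PHGDH, SLC7A11, HSPA5 and XBP1. Each was taken as the probe sets whose only annotated gene symbol is that gene. They are 10 of the 17841 genes tested, with 189 annotated probe sets, of which 169 passed the filter on dim probe sets. The cells were HCT116, a human colorectal carcinoma line titled HCT116 +/+ on every sample, and the instrument was the Affymetrix Human Exon 1.0 ST array. There were 2 arrays from cells given Nutlin-3, 2 from cells given 5-fluorouracil (5FU) and 2 from control cells, and the design text puts the harvest at 12 h. The treatment label reads Nutlin 3R where the design text has Nutlin-3, and none for the control where the design text has DMSO. The sources used here state no dose. They also do not state that replicates were separate cultures, so p-values cover only the spread between these arrays, which may be technical.

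Both responses change which proteins a stressed cell makes. In the integrated stress response, kinases that sense amino acid shortage, misfolded protein in the endoplasmic reticulum (ER), double-stranded RNA or lack of heme phosphorylate the translation factor eIF2. General translation then slows while ATF4 mRNA is translated better, so the pathway is usually read from the mRNAs of ATF4 targets rather than from ATF4 mRNA. The unfolded protein response runs from the ER membrane through PERK, IRE1 and ATF6 and raises chaperones such as HSPA5. Nutlin-3 keeps MDM2 from binding p53, and 5FU, a pyrimidine analogue, disturbs thymidylate synthesis and enters RNA.

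A gene's level on an array is the mean deposited log2 value of its used probe sets, and differences between groups are log2 differences. Levels are not compared between genes, since probe sets bind with different strength. A two-sided exact permutation test on a single gene cannot give a p below 0.333 with 2 arrays in each group, so the tests rest on limma, which shares variance across all genes. Array medians over all probe sets lay between 4.73 and 4.78. Of markers of colonic epithelium, 18 of 19 probe sets of EPCAM, 28 of 28 of KRT8, 20 of 22 of CDH1 and 16 of 27 of VIL1 exceeded the filter of 4.73. Over 7 such markers the share ran from 59.3% (VIL1) to 100%, with a median of 100%. Markers of other cells exceeded it less uniformly. Over 7 fibroblast markers the share of probe sets above the filter ran from 0% (LUM) to 96.7% (COL1A1) with a median of 68.2%, over 6 measured blood cell markers from 10.6% (PTPRC) to 57.1% (CD14) with a median of 52%, and over 4 endothelial markers from 27.3% (PECAM1) to 63.6% (CDH5) with a median of 50.9%. Their part in the results was not tested. The mean level of the fibroblast markers was 5.21 after Nutlin-3, 5.17 after 5FU and 5.21 in control, that of the blood cell markers 4.61 after Nutlin-3, 4.57 after 5FU and 4.57 in control, and that of the endothelial markers 4.93 after Nutlin-3, 4.89 after 5FU and 4.95 in control.

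None of the 10 genes passed limma's threshold, a Benjamini-Hochberg adjusted p below 0.05 over all genes, in any comparison. For Nutlin-3 against control 0 of 10 were called, against 1.22% of all genes, and 3 of 10 had an unadjusted p below 0.05, against 10.2% of all genes. For 5FU against control 0 of 10 were called, against 0.448% of all genes, and 3 of 10 had an unadjusted p below 0.05, against 10.7%. For Nutlin-3 against 5FU 0 of 10 were called, against 0.633% of all genes, and 5 of 10 had an unadjusted p below 0.05, against 13.3%. The lowest adjusted p in limma was 0.17 when Nutlin-3 was set against control, 0.181 when 5FU was, and 0.0789 between the drugs. Both drugs are set against the same control arrays, so their comparisons with control are not independent. In RNA from whole cultures, fewer cells of a kind and less RNA per cell cannot be told apart.

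The order of the groups differed from gene to gene. The median difference of the 10 genes was 0.21 for Nutlin-3 against control (all genes 0.00062), -0.10 for 5FU against control (all genes 0.00143) and 0.51 for Nutlin-3 against 5FU (all genes -0.00518). Both Nutlin-3 arrays lay above both control arrays for 4 genes, ASNS, TRIB3, CHAC1 and PHGDH (16.2% of all genes did so), and below them for 0 (18%). Both 5FU arrays lay below both control arrays for 4 genes, PSAT1, SLC7A11, HSPA5 and XBP1 (18% of all genes), and above them for 1, PHGDH (20%). Both Nutlin-3 arrays lay above both 5FU arrays for 7 of the 10 (20.8% of all genes), and 9 of the 10 had the higher mean after Nutlin-3.

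**Figure D1:**
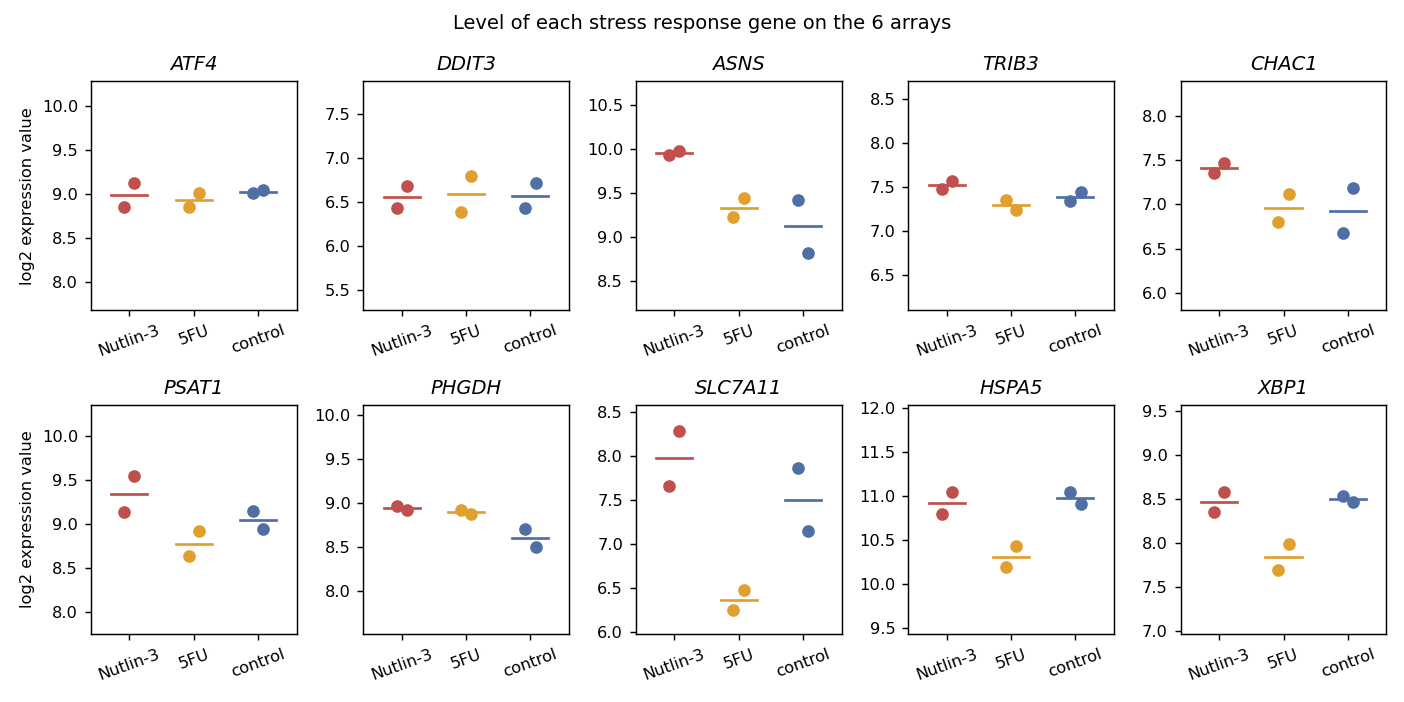
Level of each gene (log2 expression value, mean over used probe sets) on the 2 Nutlin-3, 2 5FU and 2 control arrays; points are arrays and lines are group means. SLC7A11, HSPA5 and XBP1 sit lowest on the 5FU arrays, ASNS sits highest on the Nutlin-3 arrays, and the groups of ATF4 and DDIT3 overlap.

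The transcription factors ATF4 and DDIT3 had overlapping mRNA levels in the 3 groups. ATF4, which activates genes of amino acid synthesis and transport, had levels of 8.85 and 9.13 after Nutlin-3, 8.85 and 9.01 after 5FU and 9.01 and 9.05 in control. Its difference was -0.04 for Nutlin-3 against control (95% interval -0.39 to 0.32) and -0.10 for 5FU against control (-0.45 to 0.26). DDIT3 encodes CHOP, a factor that ATF4 induces and that is tied to apoptosis in prolonged stress. Its levels were 6.43 and 6.69 after Nutlin-3, 6.39 and 6.79 after 5FU and 6.43 and 6.71 in control. The spread within each pair of arrays exceeded every difference between group means. The interval of the DDIT3 difference ran from -0.47 to 0.44 for Nutlin-3 against control and from -0.44 to 0.47 for 5FU against control. Its sign depended on the summary of its 7 used probe sets: 5FU against control gave 0.01 with their mean and -0.25 with their median.

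ASNS, asparagine synthetase, is a standard readout of ATF4 through a C/EBP-ATF response element in its promoter. The letters TGATGNAA of that element were searched on both strands in the 250 bases before each RefSeq start (GRCh38.p14). A match is present in 3.14% of 35116 such windows, those of 3.89% of 27305 genes. Windows were found for 9 of the 10 genes, and 2 of these, ASNS and CHAC1, hold a match. Their windows are shown because they are the 2 with a match. ASNS is at chr7:97872409-97872658 on the minus strand and CHAC1 at chr15:40953221-40953470 on the plus strand. Capitals mark the match, which in CHAC1 reads on the opposite strand.
ASNS: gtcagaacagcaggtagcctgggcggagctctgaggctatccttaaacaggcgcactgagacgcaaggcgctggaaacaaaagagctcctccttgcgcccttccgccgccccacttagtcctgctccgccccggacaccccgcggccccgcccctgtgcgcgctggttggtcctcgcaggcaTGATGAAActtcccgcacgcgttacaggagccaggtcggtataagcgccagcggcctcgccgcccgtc
CHAC1: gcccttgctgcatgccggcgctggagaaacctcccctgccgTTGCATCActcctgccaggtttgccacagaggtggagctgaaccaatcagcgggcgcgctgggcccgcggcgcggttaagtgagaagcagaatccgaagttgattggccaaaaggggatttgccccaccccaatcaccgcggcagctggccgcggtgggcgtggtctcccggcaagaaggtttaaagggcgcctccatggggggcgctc
The match lies 68 to 61 bases before the start in ASNS and 209 to 202 bases before it in CHAC1. It describes these letters and is no evidence of binding. Over the 403 tested genes with a match the median difference was 0.02 for Nutlin-3 against control (all genes 0.0006) and 0.0068 for 5FU against control (all genes 0.0014). The other pathway genes listed below that hold a match had Nutlin-3 differences from control of both signs. They were -0.34 for PPP1R15B, -0.27 for CEBPG, -0.13 for JDP2 and -0.08 for SLC1A5. They were 0.28 for ATF3, 0.19 for GARS1, 0.17 for HERPUD1, 0.16 for FGF21, 0.07 for IARS1 and 0.04 for AARS1. None of them was called.

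ASNS had the largest difference of the 10 genes for Nutlin-3 against control. Its levels were 9.93 and 9.98 after Nutlin-3, 9.22 and 9.44 after 5FU and 9.42 and 8.82 in control. Both Nutlin-3 arrays lay above all other arrays, the control arrays stood far apart, and the 5FU arrays overlapped them. The difference was 0.83 for Nutlin-3 against control, a 1.78-fold higher level (interval 0.33 to 1.33, limma adjusted p = 0.17). It was 0.21 for 5FU against control (interval -0.29 to 0.71, adjusted p = 0.865) and 0.62 for Nutlin-3 against 5FU (adjusted p = 0.276). Of its 23 used probe sets, 22 were positive for Nutlin-3 against control, and 20 had both Nutlin-3 arrays above both control arrays, as did 17.2% of all used probe sets. The Nutlin-3 difference was 0.53 without control replicate 2 and 1.14 without control replicate 1. With quantile normalization of the gene values ASNS passed the threshold for Nutlin-3 against control (adjusted p = 0.0122; 0.0122 to 0.457 over 14 alternatives) and for Nutlin-3 against 5FU (0.0413; 0.0413 to 0.818).

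CHAC1 and TRIB3 are induced by ATF4 and CHOP in sustained stress. CHAC1, which degrades glutathione, had levels of 7.36 and 7.47 after Nutlin-3, 6.80 and 7.11 after 5FU and 6.67 and 7.18 in control. Both Nutlin-3 arrays lay above the other 4, and 5FU and control overlapped. Its difference was 0.49 for Nutlin-3 against control (interval 0.00799 to 0.97, limma adjusted p = 0.483), with all 6 probe sets positive, and 0.03 for 5FU against control (interval -0.45 to 0.51, adjusted p = 0.99). The Nutlin-3 difference was 0.23 without control replicate 1 and 0.74 without control replicate 2. TRIB3, a pseudokinase that binds ATF4 and limits its activity, had levels of 7.47 and 7.57 after Nutlin-3, 7.35 and 7.24 after 5FU and 7.34 and 7.44 in control. The Nutlin-3 arrays were highest by a small margin. Its difference was 0.13 for Nutlin-3 against control (interval -0.18 to 0.44) and -0.09 for 5FU against control (interval -0.41 to 0.22), with ranges of 0.08 to 0.18 and -0.15 to -0.04 when 1 array was left out.

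PHGDH and PSAT1 act in turn in serine synthesis and did not share an order of groups. PHGDH, phosphoglycerate dehydrogenase, had levels of 8.96 and 8.91 after Nutlin-3, 8.91 and 8.88 after 5FU and 8.71 and 8.50 in control. All 4 drug arrays lay above both control arrays, and the drug groups overlapped. Its difference was 0.33 for Nutlin-3 against control (limma adjusted p = 0.468), 0.29 for 5FU against control (adjusted p = 0.531) and 0.04 between the drugs (interval -0.28 to 0.36). Of its 19 used probe sets, 18 were positive for Nutlin-3 against control, and as many for 5FU against control. Without control replicate 2 the 5FU difference was 0.19. PSAT1, phosphoserine aminotransferase, had levels of 9.13 and 9.54 after Nutlin-3, 8.63 and 8.91 after 5FU and 9.15 and 8.94 in control. Both 5FU arrays lay below the others, the higher of them by a narrow margin. Its difference was 0.29 for Nutlin-3 against control (limma adjusted p = 0.736), -0.27 for 5FU against control (adjusted p = 0.746) and 0.56 between the drugs (adjusted p = 0.275). With 1 array left out it ran from 0.09 to 0.50 for Nutlin-3 against control, from -0.41 to -0.13 for 5FU against control and from 0.36 to 0.77 between the drugs, the end nearest to 0 being without Nutlin-3 replicate 2, 5FU replicate 1 and Nutlin-3 replicate 2 in these comparisons.

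SLC7A11 had the widest range of the 10 genes over the 6 arrays. It encodes xCT, the cystine importer that feeds glutathione synthesis, is an ATF4 target and is also known to be repressed by p53. Its levels were 7.65 and 8.29 after Nutlin-3, 6.25 and 6.48 after 5FU and 7.86 and 7.15 in control. The 5FU arrays lay below all others, and the Nutlin-3 and control arrays overlapped. The difference was 1.61 for Nutlin-3 against 5FU, or 3.04-fold (interval 0.92 to 2.29, limma adjusted p = 0.0789). It was -1.14 for 5FU against control, a 2.2-fold lower level (interval -1.82 to -0.46, adjusted p = 0.216), and 0.47 for Nutlin-3 against control (interval -0.21 to 1.15, adjusted p = 0.714). Of 18 used probe sets, 17 were negative for 5FU against control, 15 with both 5FU arrays below both control arrays (17.6% of all used probe sets), and 18 were positive for Nutlin-3 against 5FU. The control arrays stood apart here too: the 5FU difference was -0.78 without control replicate 1 and -1.49 without control replicate 2. The Nutlin-3 difference was 0.82 without control replicate 1 and 0.11 without control replicate 2. Between the drugs SLC7A11 passed the threshold with upper-quartile probe sets (adjusted p = 0.0163), with arrays centred on their medians (0.018) and with quantile normalization (0.00644; 0.00644 to 0.374 over 14 alternatives). With quantile normalization it also passed for 5FU against control (adjusted p = 0.0482; 0.0482 to 0.674 over 14 alternatives).

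HSPA5 and XBP1, of the unfolded protein response, were both lowest on the 5FU arrays. HSPA5 encodes BiP, the main ER chaperone. XBP1 encodes the factor whose mRNA IRE1 splices into its active form, and the gene value does not tell the spliced from the unspliced form. Many genes of this response carry the ER stress response element, searched on both strands of the same windows as CCAAT, any 9 bases and CCACG. A match is present in 0.074% of 35116 windows, those of 25 among 27305 genes. HSPA5 and XBP1 are the 2 with a match among the 9 genes for which windows were found, and their windows are shown for that reason. HSPA5 is at chr9:125241344-125241593 and XBP1 at chr22:28800570-28800819, both on the minus strand, with the match in capitals.
HSPA5: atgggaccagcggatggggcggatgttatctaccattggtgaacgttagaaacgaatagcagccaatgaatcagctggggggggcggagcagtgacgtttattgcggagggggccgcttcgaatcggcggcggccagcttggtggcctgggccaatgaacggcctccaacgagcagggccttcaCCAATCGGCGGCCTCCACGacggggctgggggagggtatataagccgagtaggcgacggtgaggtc
XBP1: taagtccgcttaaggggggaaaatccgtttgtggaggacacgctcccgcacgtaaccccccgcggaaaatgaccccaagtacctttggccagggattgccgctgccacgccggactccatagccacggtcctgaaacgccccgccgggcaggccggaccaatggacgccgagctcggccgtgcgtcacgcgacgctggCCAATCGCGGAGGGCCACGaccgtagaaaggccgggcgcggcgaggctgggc
The match lies 66 to 48 bases before the start in HSPA5 and 52 to 34 bases before it in XBP1. It describes these letters and is no evidence of binding. Over the 19 tested genes with a match the median difference was -0.04 for Nutlin-3 against control (all genes 0.0006) and -0.05 for 5FU against control (all genes 0.0014). HSPA5 and XBP1 are among the 19.

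HSPA5 had levels of 10.79 and 11.04 after Nutlin-3, 10.19 and 10.43 after 5FU and 11.05 and 10.91 in control. The 5FU arrays lay below the other 4, among which Nutlin-3 and control overlapped. The difference was -0.67 for 5FU against control, a 1.59-fold lower level (interval -1.04 to -0.30, limma adjusted p = 0.181), 0.61 for Nutlin-3 against 5FU (adjusted p = 0.17) and -0.06 for Nutlin-3 against control (interval -0.43 to 0.31). XBP1 had levels of 8.35 and 8.58 after Nutlin-3, 7.70 and 7.99 after 5FU and 8.53 and 8.47 in control. Here too the 5FU arrays lay below the other 4. The difference was -0.66 for 5FU against control, a 1.58-fold lower level (interval -1.03 to -0.28, limma adjusted p = 0.19), 0.62 for Nutlin-3 against 5FU (adjusted p = 0.165) and -0.04 for Nutlin-3 against control (interval -0.41 to 0.34). For 5FU against control 24 of 25 used HSPA5 probe sets and 11 of 12 XBP1 probe sets were negative. With quantile normalization HSPA5 passed for 5FU against control (adjusted p = 0.0393; 0.0393 to 0.716 over 14 alternatives), while XBP1 did not (0.0573 to 0.738 over the same 14). Between the drugs both passed with quantile normalization, HSPA5 at an adjusted p of 0.0345 (0.0345 to 0.617) and XBP1 at 0.0254 (0.0254 to 0.551).

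**Figure D2:**
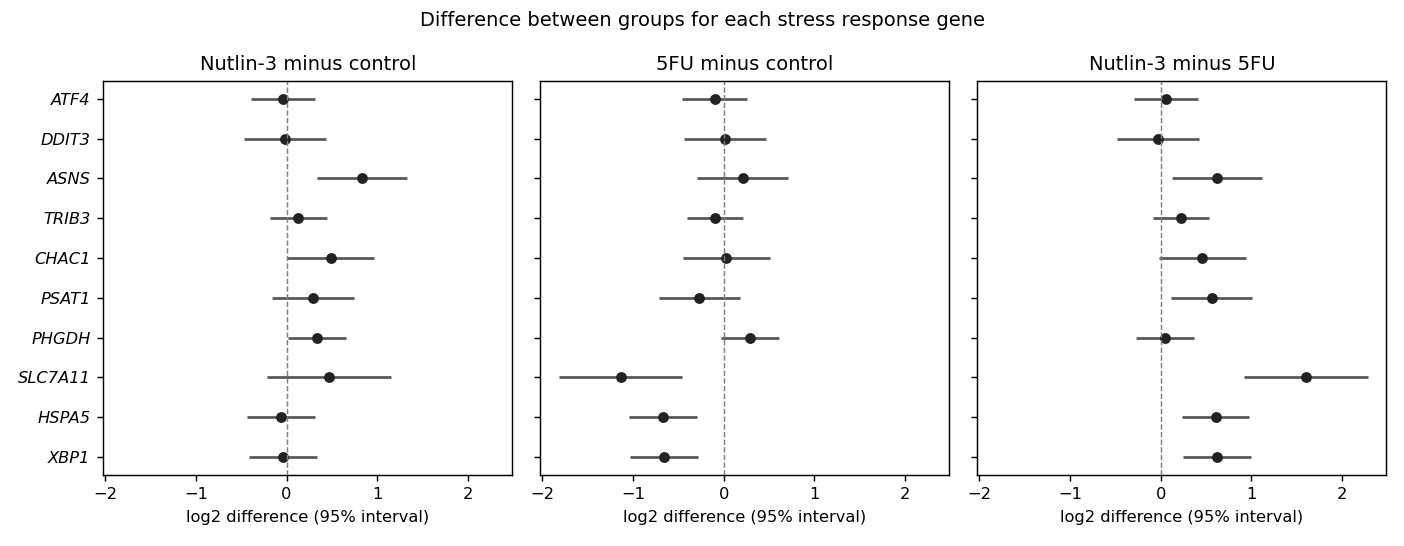
Log2 difference of each gene with its 95% interval from limma, for Nutlin-3 minus control, 5FU minus control and Nutlin-3 minus 5FU. The 5FU intervals of SLC7A11, HSPA5 and XBP1 and the Nutlin-3 intervals of ASNS, CHAC1 and PHGDH against control exclude 0 before adjustment, and none of the 10 genes passed after adjustment over all genes.

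Single probe sets read short stretches of a transcript. None of the 169 used probe sets of the 10 genes passed limma's threshold adjusted over 705699 probe sets. For Nutlin-3 against control 0% of all probe sets were called and 6.14% had an unadjusted p below 0.05, as did 20 of the 169. Of these, 15 belong to ASNS (23 used probe sets), 3 to SLC7A11 and 1 each to CHAC1 and PHGDH, and the other 6 genes had none. For 5FU against control 0% were called and 6.27% had an unadjusted p below 0.05, as did 32 of the 169: 13 of 25 for HSPA5, 12 of 18 for SLC7A11, 6 of 12 for XBP1 and 1 of 27 for ATF4, with none for the other 6 genes. For Nutlin-3 against 5FU 0.00142% were called and 7.39% had an unadjusted p below 0.05, as did 53 of the 169, most of them in SLC7A11 (16 of 18), HSPA5 (13 of 25), ASNS (8 of 23) and PSAT1 (8 of 17), with none in DDIT3 and PHGDH. Probe sets of 1 gene are read on the same RNA samples and are not replicates. The probe-set numbers of HSPA5, ATF4, ASNS and PSAT1 fall in separate runs. Whether all probe sets of such a gene read the same locus was not tested. For 5FU against control HSPA5 differences were -0.62 to -0.29 in the run from 2331066 and -0.51 to 0.07 in that from 2750337. In the run from 3225399 they were -1.53 to -0.01, where -0.01 is that of probe set 3225420 and the next nearest to 0 is -0.24. PSAT1 differences for 5FU against control were -0.25 to 0.08 in the run from 2419487 and -0.58 to 0.47 in that from 3175973. Each gene value averages over its runs.

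**Figure D3:**
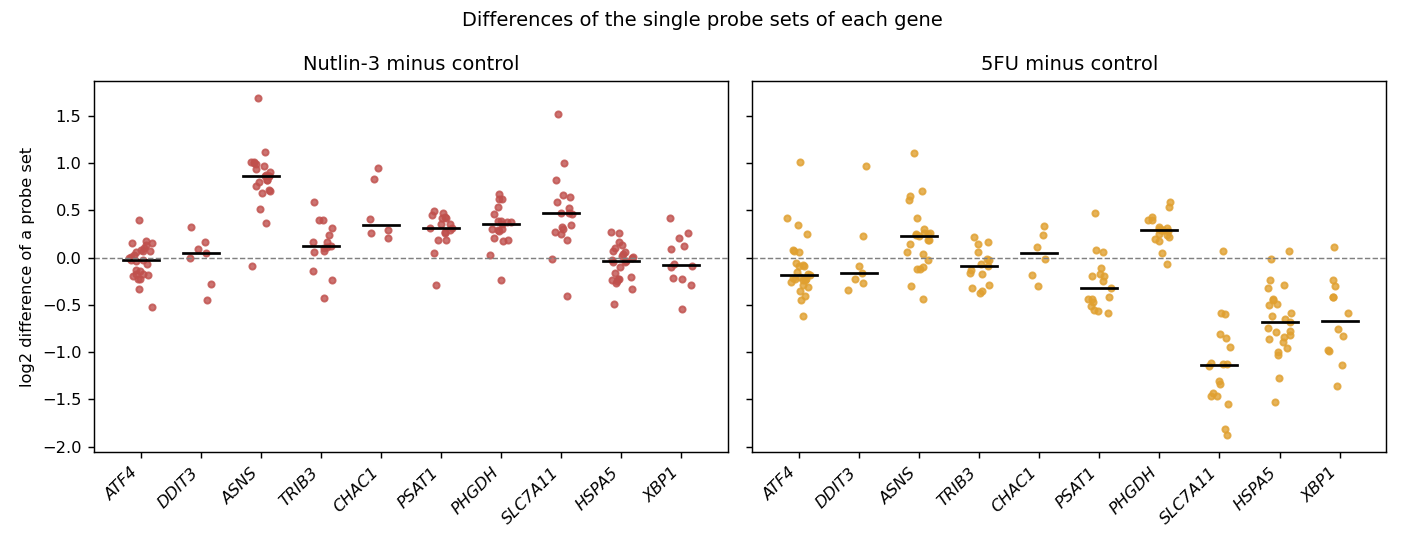
Log2 difference of every used probe set of the 10 genes (points) with the gene's median (bars), for Nutlin-3 minus control and 5FU minus control. All but 1 probe set of SLC7A11, of HSPA5 and of XBP1 lie below 0 after 5FU, and all but 1 of ASNS lie above 0 after Nutlin-3.

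Beyond the 10 genes, 99 other genes of these pathways were measured, in 10 lists by role that also hold the 10. For Nutlin-3 against control 4 of the 99 rose and 0 fell (0.359% of all genes were called higher and 0.858% lower). For 5FU against control 4 rose and 0 fell (0.331% and 0.118% of all genes). For Nutlin-3 against 5FU 1 was called higher and 0 lower (0.0617% and 0.572% of all genes, where quantile normalization moved the share of higher among all calls to 24.0%, against 9.7%). Each called gene is in the list of ATF4 targets also known as p53 targets, where 4 of 7 rose with each drug. The median of that list was 0.94 for Nutlin-3 and 1.04 for 5FU against control. The list holds known p53 targets and was chosen with earlier results of these data known. Its counts and medians, and with them the calls among the 99 genes, are therefore no test of either stress response.

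Among the 7 genes of that list GDF15 had the largest difference from control with each drug, and DDIT4 had the largest between the drugs. GDF15, a secreted stress cytokine, had levels of 11.00 and 11.08 after Nutlin-3, 10.85 and 10.94 after 5FU and 8.76 and 8.67 in control. It rose 5.01-fold with Nutlin-3 (limma adjusted p = 0.0023) and 4.53-fold with 5FU (adjusted p = 0.00357). DDIT4, an inhibitor of mTORC1, had levels of 8.87 and 9.22 after Nutlin-3, 7.86 and 8.03 after 5FU and 7.42 and 7.43 in control. It rose 3.08-fold with Nutlin-3 (limma adjusted p = 0.0099) and was 2.15-fold higher after Nutlin-3 than after 5FU (adjusted p = 0.0442), and its difference for 5FU against control was 0.52 (adjusted p = 0.307).

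The other calls were in GADD45A, TNFRSF10B and SESN2. GADD45A, a growth arrest gene, rose 2.29-fold with Nutlin-3 (limma adjusted p = 0.0306) and 2.69-fold with 5FU (adjusted p = 0.0313). TNFRSF10B, the death receptor DR5 that CHOP also induces, rose with Nutlin-3 by 0.94 on the log2 scale (limma adjusted p = 0.0338) and with 5FU by 1.08 (adjusted p = 0.0388). SESN2, a sestrin, rose 2.06-fold with 5FU (limma adjusted p = 0.0385) and had a difference of 0.74 for Nutlin-3 (adjusted p = 0.0648). GDF15 kept its Nutlin-3 call without any single array (adjusted p 0.0097 to 0.0325) and lost its 5FU call without 5FU replicate 1 (0.0524) or 5FU replicate 2 (0.0676). DDIT4 lost its Nutlin-3 call without control replicate 1 (0.0679). GADD45A lost its 5FU call without control replicate 1 (0.0686), control replicate 2 (0.144), 5FU replicate 1 (0.206) or 5FU replicate 2 (0.26). The remaining calls were lost whichever of the 6 arrays was left out: adjusted p was 0.0551 to 0.137 for GADD45A and 0.0609 to 0.166 for TNFRSF10B with Nutlin-3, 0.0561 to 0.352 for TNFRSF10B and 0.0558 to 0.312 for SESN2 with 5FU, and 0.0642 to 0.307 for DDIT4 between the drugs. With all probe sets of a gene GADD45A lost its Nutlin-3 call (0.0522) and DDIT4 its call between the drugs (0.0689). With the median over probe sets SESN2 (0.0515) and TNFRSF10B (0.0772) lost their 5FU calls and DDIT4 its call between the drugs (0.0785), which was also lost with trend and robust variances (0.0513).

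Among 14 transcription factors of both responses 0 were called, and the median difference was -0.00696 for Nutlin-3 and -0.01 for 5FU against control. Of all genes, 1.22% were called for Nutlin-3 and 0.448% for 5FU against control, and 0.633% between the drugs. At such shares 0 calls do not set this list, or the lists below, apart from other genes. ATF3, a stress-induced factor downstream of ATF4 and p53, had levels of 6.63 and 6.80 after Nutlin-3, 7.04 and 7.15 after 5FU and 6.48 and 6.38 in control. The 3 groups did not overlap, and the difference was 0.67 for 5FU (limma adjusted p = 0.13) and 0.28 for Nutlin-3 against control (adjusted p = 0.575). NUPR1 had the highest Nutlin-3 difference, 0.52 (adjusted p = 0.364; 0.32 without control replicate 1), and ATF5 the lowest, -0.36 (adjusted p = 0.467).

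Among 13 ATF4 targets of amino acid and one-carbon synthesis 0 were called, and the median was 0.15 for Nutlin-3 and -0.05 for 5FU against control. PCK2, mitochondrial phosphoenolpyruvate carboxykinase, had levels of 7.03 and 7.06 after Nutlin-3, 6.24 and 6.25 after 5FU and 6.66 and 6.81 in control. The 3 groups did not overlap, and the difference between the drugs was 0.79 (limma adjusted p = 0.0614). PYCR1, of proline synthesis, had the lowest 5FU difference of the list, -0.53 (adjusted p = 0.189). PSPH had the highest, 0.38 (adjusted p = 0.607), which ran from 0.12 to 0.65 with 1 array left out.

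Among 9 amino acid transporters 0 were called, the median was -0.04 for Nutlin-3 and -0.23 for 5FU against control, and 6 of them had both 5FU arrays below both control arrays (18% of all genes) and 2 had both above (20%). SLC3A2, the heavy chain that pairs with SLC7A11 at the membrane, had levels of 6.82 and 7.18 after Nutlin-3, 7.44 and 7.57 after 5FU and 7.09 and 7.03 in control. Its 5FU arrays lay above the others, the opposite order to SLC7A11, with a difference of -0.50 for Nutlin-3 against 5FU (limma adjusted p = 0.253; -0.32 without Nutlin-3 replicate 1). SLC1A4 had the highest difference of the list for 5FU against control, 0.48 (limma adjusted p = 0.26).

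Among 12 aminoacyl-tRNA synthetases, which load tRNAs, 0 were called, and the median was 0.07 for Nutlin-3 and -0.18 for 5FU against control, with 10 negative for 5FU. Of the 12, 4 had both 5FU arrays below both control arrays (18% of all genes) and 1 had both above (20%). CARS1, for cysteine, had levels of 7.51 and 7.72 after Nutlin-3, 6.74 and 6.95 after 5FU and 7.48 and 7.51 in control. The 5FU arrays lay lowest, with a difference of -0.65 for 5FU against control (limma adjusted p = 0.163) and 0.77 between the drugs (adjusted p = 0.0882). SARS1, for serine, had a positive difference with both drugs, 0.73 for Nutlin-3 (adjusted p = 0.148) and 0.82 for 5FU (adjusted p = 0.146).

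Among 12 stress-phase targets of ATF4 and CHOP 0 were called, and the median was 0.13 for Nutlin-3 and -0.00946 for 5FU against control. KLHL24, a ubiquitin ligase adaptor, had levels of 7.09 and 7.14 after Nutlin-3, 6.54 and 6.59 after 5FU and 6.52 and 6.27 in control. The Nutlin-3 arrays lay highest, with a difference of 0.72 from control (limma adjusted p = 0.0788). With arrays centred on their medians KLHL24 passed for Nutlin-3 against control (adjusted p = 0.0436; 0.0313 to 0.442 over 14 alternatives), and between the drugs CARS1 (0.0391; 0.0209 to 0.427) and PCK2 (0.0366; 0.0203 to 0.489) passed. With quantile normalization SARS1 passed for Nutlin-3 against control (limma adjusted p = 0.0119, against 0.148 without it) and for 5FU against control (0.0376, against 0.146). HYOU1 (0.0191, against 0.104) and PSAT1 (0.0308, against 0.275) then passed between the drugs. These results passed under none of the other alternatives, leaving aside the crossed block described at the end.

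Upstream of ATF4, 0 of 14 eIF2 kinases, eIF2 and eIF2B subunits and regulators of eIF2 phosphorylation were called, with medians of -0.10 for Nutlin-3 and 0.06 for 5FU against control. PPP1R15A, the GADD34 subunit that directs dephosphorylation of eIF2, had levels of 7.55 and 7.77 after Nutlin-3, 8.22 and 8.35 after 5FU and 7.75 and 7.81 in control. Both 5FU arrays lay above the others, with a difference of 0.50 from control (limma adjusted p = 0.264). EIF2AK3, which encodes PERK, had a difference of 0.40 for 5FU (adjusted p = 0.481; 0.21 without control replicate 2) and -0.00661 for Nutlin-3 against control (adjusted p = 0.997).

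In the ER, 0 of 15 chaperone and folding genes were called, with medians of -0.04 for Nutlin-3 and -0.05 for 5FU against control. HYOU1, a chaperone of the ER lumen, had levels of 9.90 and 10.12 after Nutlin-3, 9.26 and 9.39 after 5FU and 9.90 and 9.93 in control. Its 5FU arrays lay lowest, as those of HSPA5 did, with a difference of -0.59 for 5FU against control (limma adjusted p = 0.188) and 0.69 between the drugs (adjusted p = 0.104). The other genes of the list whose windows hold the ER stress response element had 5FU differences of -0.08 for HSP90B1, -0.12 for CALR, -0.05 for CANX, 0.10 for CRELD2 and 0.25 for PDIA6 (0.04 without control replicate 2), none of them called.

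Among 13 genes of ER-associated degradation and translocation 0 were called, with medians of 0.18 for Nutlin-3 and -0.02 for 5FU against control. SEC61A1 had the highest difference of the list for 5FU against control, 0.58 (limma adjusted p = 0.217), and HERPUD1 the lowest. HERPUD1, which takes part in ER-associated degradation, had levels of 8.68 and 8.91 after Nutlin-3, 7.79 and 8.04 after 5FU and 8.68 and 8.57 in control. Its 5FU arrays lay lowest, with a difference of -0.71 for 5FU against control (limma adjusted p = 0.15; 0.0373 to 0.674 over 14 alternatives, the lowest with quantile normalization) and 0.88 between the drugs (adjusted p = 0.0745; 0.00639 to 0.36). Among 8 sensors of the unfolded protein response and their partners 0 were called, with medians of 0.05 for Nutlin-3 and 0.02 for 5FU against control.

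**Figure D4:**
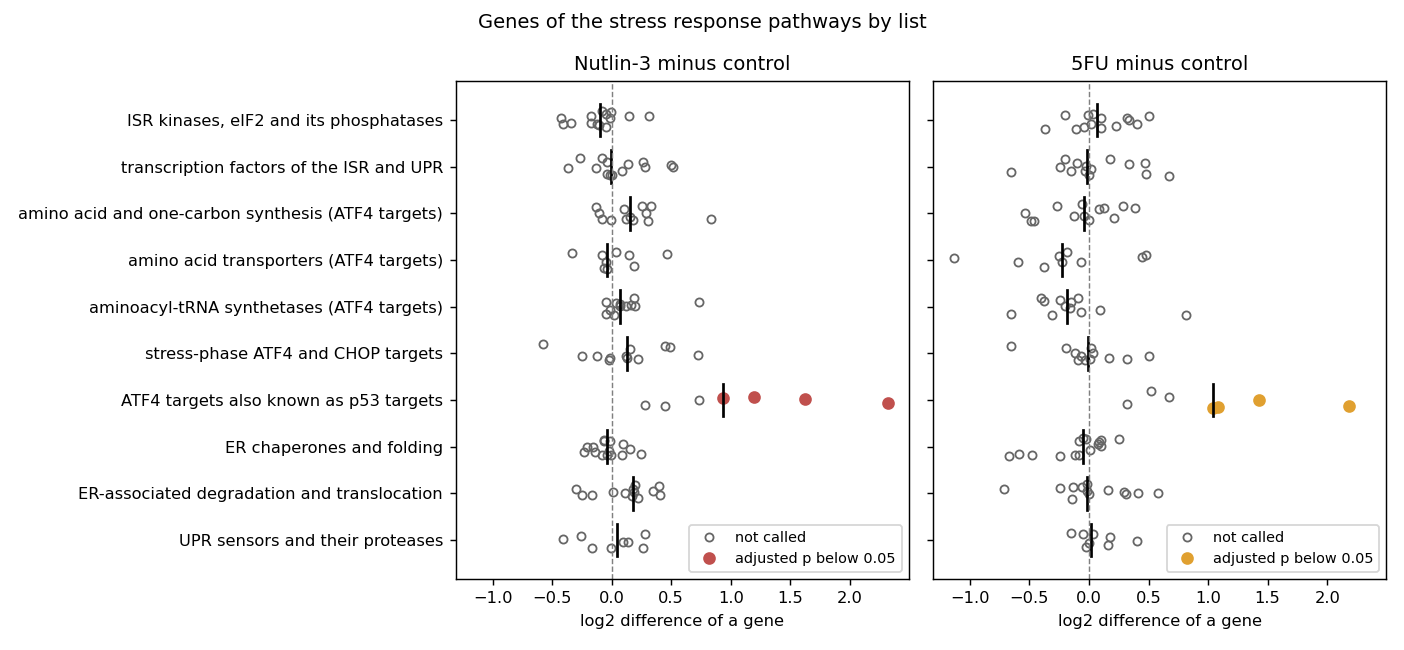
Log2 differences of the genes of 10 pathway lists (points; bars are list medians) for Nutlin-3 minus control and 5FU minus control; filled points had a Benjamini-Hochberg adjusted p below 0.05, and a gene in more than 1 list appears in each. The filled points lie in the list of ATF4 targets also known as p53 targets, 4 with each drug.

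The profiles nearest to ASNS over the 6 arrays, by the root mean square difference of log2 levels centred on each gene's mean among 16865 genes, were those of XPC (0.0825), KLHL24 (0.123), FIG4 (0.125), ERO1B (0.126) and SPRY1 (0.128). The centred profile of ASNS itself has a root mean square of 0.4. Nearest to HSPA5, whose own root mean square is 0.32, were ZBTB25 (0.0222), FBH1 (0.0515), CAMKK2 (0.0606), CYP2R1 (0.0611) and DHTKD1 (0.0629). Over so few arrays such likeness is a description only.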

How the data were processed

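The authors deposited a log2 value for each probe set, made with RMA per the submitters' processing notes, version not stated there. The labels name PicoPure for RNA extraction and the design text RNeasy. Samples were grouped by the treatment label. The platform annotation gave 1 symbol to 357604 of 1411399 probe sets, 15322 had several and 1038473 none. Symbols were updated through RefSeq (GRCh38.p14), which also gave the promoter windows; GARS, MARS and SARS, synonyms of more than 1 gene, were read as GARS1, MARS1 and SARS1.

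A gene's value was the mean of its probe sets whose mean over 6 arrays exceeded the median of all (4.73), with at least 2 such probe sets. The 3 groups were fitted in 1 model with limma 3.58.1 in R 4.3.3 (lmFit, eBayes, no block), with Benjamini-Hochberg adjustment over 17841 genes. The fit was also run on simulated data with independent noise, read for 5FU against control only. Such data do not cover array deviations that many genes share. The number of arrays limits the precision. Alternatives were other probe-set filters and summaries, scalings, variance models, a replicate block and leaving out each array.

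The members and lists were chosen with earlier results of these data known. The rule for naming took the 10 members and, per list and comparison, up to 6 called genes. With fewer than 2 called, it also took the highest and lowest. A gene so named may be given in other comparisons too. The text does not describe every gene so named. EIF2AK4, GCN1, CREB3L2, NFE2L2, EDEM1 and ERO1A are among those left out. HSP90B1, CALR, CANX, CRELD2, CEBPG, JDP2, SLC1A5, AARS1, GARS1, IARS1 and FGF21 were named for their promoter match after their values were seen.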

Additional observations from a re-analysis of the deposited data

How the results depend on the processing

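For Nutlin-3 against control limma called 217 genes, between 5 and 149 with 1 array left out (31 and 131 without Nutlin-3 replicate 1 or 2, 5 and 115 without control replicate 1 or 2), 380 with upper-quartile probe sets, 381 with arrays centred on their medians and 514 with quantile normalization. For 5FU against control limma called 80 genes, between 1 and 63 with 1 array left out (1 and 1 without 5FU replicate 1 or 2, 3 and 4 without control replicate 1 or 2), 151 with upper-quartile probe sets, 177 with arrays centred on their medians and 242 with quantile normalization, and 39 with the median over probe sets. For Nutlin-3 against 5FU limma called 113 genes, between 3 and 104 with 1 array left out (9 and 51 without Nutlin-3 replicate 1 or 2, 18 and 3 without 5FU replicate 1 or 2), 234 with upper-quartile probe sets, 297 with arrays centred on their medians and 416 with quantile normalization, and 69 with the median over probe sets and 69 with all probe sets of a gene. No scaling moved the median of all genes by over 0.1.

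With the replicate number as a block limma called 2, 1 and 0 genes in these comparisons (1441, 1444 and 1821 at an unadjusted p below 0.05), 0 of the 10 members, and none of GDF15, DDIT4, GADD45A, TNFRSF10B and SESN2, whose adjusted p was then 0.0535 (GDF15 with Nutlin-3) to 0.195 (SESN2 with 5FU) where they had been called. Deviations of same-numbered arrays correlated at -0.56 for Nutlin-3 and control, -0.52 for 5FU and control and 0.63 for the drugs. Since the control arrays ran against those of both drugs, the numbers were not taken as a pairing. The block has 1 coefficient over all 3 groups, so its counts do not test a pairing of the drug arrays alone. A crossed block, chosen after the data were seen, gave 1788, 1882 and 2821 calls, with 1, 3 and 5 of the 10 members among them.

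Of the 30 log2 differences of the 10 members, 21 kept their direction under all 14 alternatives other than the crossed block, and 9 changed sign at least once, as did 5 of 55 differences of other named genes; none of these was called. For Nutlin-3 against control ATF4 was 0.0069 with the median over probe sets, 0.114 with quantile normalization and -0.179 to 0.102 with 1 array left out and DDIT3 was 0.0746 with upper-quartile probe sets, 0.0329 with the median over probe sets and -0.154 to 0.125 with 1 array left out. DERL1 was -0.623 to 0.0238 with 1 array left out and EIF2AK2 was -0.877 to 0.0331 with 1 array left out. HSPA5 was 0.0005 with the median over probe sets and -0.184 to 0.0609 with 1 array left out and LARS1 was 0.0928 with quantile normalization and -0.36 to 0.26 with 1 array left out. SHMT2 was 0.0097 with quantile normalization and XBP1 was 0.0945 with quantile normalization and -0.149 to 0.0786 with 1 array left out. For 5FU against control ASNS was -0.0928 to 0.512 with 1 array left out and CHAC1 was -0.0292 with upper-quartile probe sets, -0.0235 with quantile normalization and -0.224 to 0.285 with 1 array left out. DDIT3 was -0.0069 with all probe sets of a gene, -0.187 with upper-quartile probe sets, -0.249 with the median over probe sets, -0.0101 with arrays centred on their medians, -0.0171 with quantile normalization and -0.189 to 0.218 with 1 array left out. For Nutlin-3 against 5FU ATF4 was -0.0811 to 0.1998 with 1 array left out and DDIT3 was 0.262 with upper-quartile probe sets, 0.282 with the median over probe sets, 0.0007 with arrays centred on their medians and -0.233 to 0.174 with 1 array left out. SARS1 was 0.0901 with quantile normalization. The cause of these shifts was not tested.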
